A study of Homo sapiens with 24 samples.

Results

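The 10 genes described here encode proteins that build, coat and empty lipid droplets. They are the droplet coat proteins PLIN2, PLIN3 and PLIN4, the acyltransferases DGAT1, DGAT2 and SOAT1, the lipase PNPLA2, its co-activator ABHD5, and its inhibitors G0S2 and HILPDA. They were chosen by name for their place in lipid droplet and triglyceride turnover, with earlier results of these data known. By gene identifier, all 10 were found among the 37416 genes listed. All 10 were also among the 21352 genes that passed the filter on low counts. RNA had been sequenced from BT549, HCC1806, MDAMB231 and MDAMB468, which are human breast cancer cell lines of the triple-negative type. Each line carried a lentiviral short hairpin RNA, either shADAR1, directed at the transcript of ADAR1, or shNT, a control hairpin. Both arms were infected for 24 h with protamine sulfate at 10 µg/ml, and 72 h of selection followed, in 2 µg/ml of puromycin, so the controls also were infected and drug-selected cells. There were 3 biological replicates in each of the 8 groups of line and hairpin, 24 libraries in all. Neither the hairpin's sequence nor the number of hairpins against ADAR1 is given in the sources used here. The labels do not say that replicates came from separate infections, so the p-values measure the spread between these libraries. In bulk RNA, fewer cells that express a gene and less of its RNA per cell cannot be told apart.

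Cells store surplus fatty acids and cholesterol as neutral lipid in droplets that bud from the endoplasmic reticulum. DGAT1 and DGAT2 make triglyceride from diacylglycerol, SOAT1 makes cholesteryl ester, and perilipins coat the droplet and limit the access of lipases. PNPLA2, also called ATGL, removes the first fatty acid from triglyceride. ABHD5 activates it, and G0S2 and HILPDA inhibit it. In cancer cells droplets hold fatty acids, unsaturated ones among them, out of the membranes, and the series title names lipid remodelling and ferroptosis, a form of cell death driven by oxidised membrane lipids.

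Total counts per library ran from 10370645 to 97218217. ADAR, which encodes the RNA-editing enzyme ADAR1, fell in all 4 lines, to between 21.9% and 37.1% of its control level. In HCC1806 that call was lost in a fit of the 6 HCC1806 libraries alone (log2 -1.6, adjusted p = 0.213, edgeR). The identity of the cells was checked with markers. BT549 libraries had almost no RNA of the 6 epithelial genes EPCAM, CDH1, KRT8, KRT18, KRT5 and KRT14, with a summed level of 0.724 to 1.51 CPM (counts scaled to the library total), against 3130 to 3840 CPM in HCC1806 and MDAMB468. MDAMB231 had 646 to 835 CPM, nearly all of it KRT8 and KRT18: CDH1 was at most 0.375 CPM, KRT5 at most 0.0577, KRT14 at most 0.554 and EPCAM 6.49 to 10.9. The mesenchymal genes VIM, CDH2 and ZEB1 summed to 4010 to 5670 CPM in MDAMB231 and 2280 to 3080 CPM in BT549, and to at most 57.3 CPM in the other lines. In MDAMB231 most of that was VIM, at 3870 to 5560 CPM, with ZEB1 at 98.5 to 137 CPM. CDH2 went the other way there, at 0.185 to 1.15 CPM, below HCC1806 (23.1 to 34.7 CPM) and BT549 (212 to 272 CPM). ESR1, the oestrogen receptor gene, reached 26.8 CPM in HCC1806 and 8.14 CPM in MDAMB468 and was under 1 CPM in the other lines. The receptor gene PGR was at most 0.923 CPM in any library, and ERBB2 lay between 69.8 and 118 CPM in all 4 lines. The adipocyte genes ADIPOQ, LEP, FABP4, PLIN1 and CIDEC summed to at most 10.7 CPM in any library, and ADIPOQ had no more than 6 counts in any of them.

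In control cells all 10 genes differed between the 4 lines, and the order of the genes differed too. A test of the 4 shNT groups with edgeR's quasi-likelihood method, adjusted over all genes tested by the Benjamini-Hochberg method, called 10 of 10 at an adjusted p under 0.05. It also called 85.9% of all genes tested, so a level that differs between these lines was the rule. Levels of different genes were compared as the deposited RPKM, which divides the deposited CPM, without TMM scaling, by gene length in kilobases. PLIN3 had the highest mean in BT549 shNT, at 61.4 RPKM. G0S2 had the highest in HCC1806 and in MDAMB231, at 46.1 and 118 RPKM. PNPLA2 led in MDAMB468, at 36.1 RPKM. PLIN4 was the ninth of the 10 in every line, at 0.699 to 1.07 RPKM. Between pairs of lines, HCC1806 and MDAMB231 differed in the fewest of the 10 genes: 4 were called, PLIN3, DGAT1, ABHD5 and G0S2, where 59.0% of all genes were. BT549 differed from HCC1806 in 9, from MDAMB231 in 9 and from MDAMB468 in 8 of the 10 genes, where 63.5%, 56.5% and 61.0% of all genes were called. MDAMB468 differed from HCC1806 in 9 and from MDAMB231 in 9, where 62.9% and 61.8% were.

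**Figure D1:**
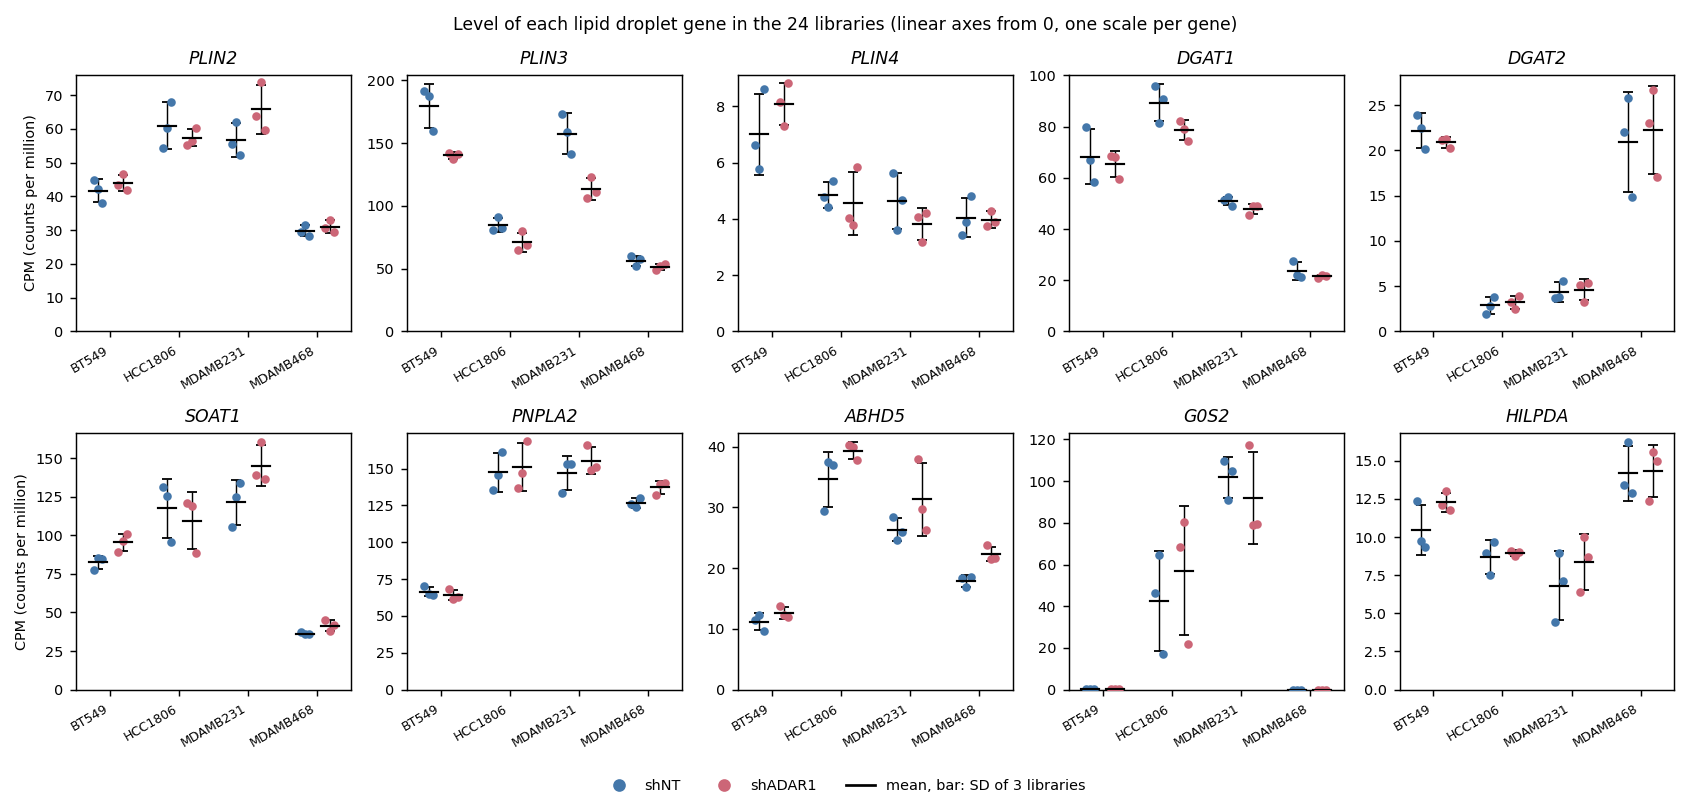
CPM (linear axes from 0, a separate scale for each gene) of the 10 genes in the 24 libraries, shNT in blue and shADAR1 in red. Points are libraries, short lines are means and bars are the SD of 3 libraries. G0S2 runs from 0 in MDAMB468 to over 100 CPM in MDAMB231, and PLIN3 shows the 2 arms apart in BT549, HCC1806 and MDAMB231.

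Lowering ADAR was accompanied by 1 fall and 1 rise that passed the test over all 4 lines. PLIN3 fell by 0.30 on the log2 scale on average over the lines (SE 0.0481, 95% interval -0.40 to -0.21), which is a fall of 19% (adjusted p = 0.000306, edgeR). ABHD5 rose by 0.23 (SE 0.0632, 95% interval 0.10 to 0.36, adjusted p = 0.0468, edgeR). Both passed among 9 genes, and 2.96% of all genes tested did. G0S2 is not among the 9, since it had no count in MDAMB468. The genes were chosen with earlier results of these data known, so such counts are no test of them as a group. In the single lines 1 gene passed in MDAMB231, again PLIN3, where 2.01% of all genes passed. None of the 10 passed in BT549 or HCC1806, where 0.473% and 0.0468% of all genes did, and none of 9 in MDAMB468, where 0.0375% did. At an unadjusted p under 0.05 the counts were 1 in BT549, 1 in HCC1806, 3 in MDAMB231, 1 in MDAMB468 and 4 on average. No share of all genes is given here for that threshold, so these counts cannot be read as many or few. DESeq2 called PLIN3 in BT549 and MDAMB231, PLIN3 and ABHD5 on average, and none in HCC1806 or MDAMB468, with 1.31%, 3.68%, 4.89%, 0.187% and 0.197% of all genes called in that order. A joint test of whether the change differs between the lines called none of 9 genes, and 0.0234% of all genes (edgeR).

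**Figure D2:**
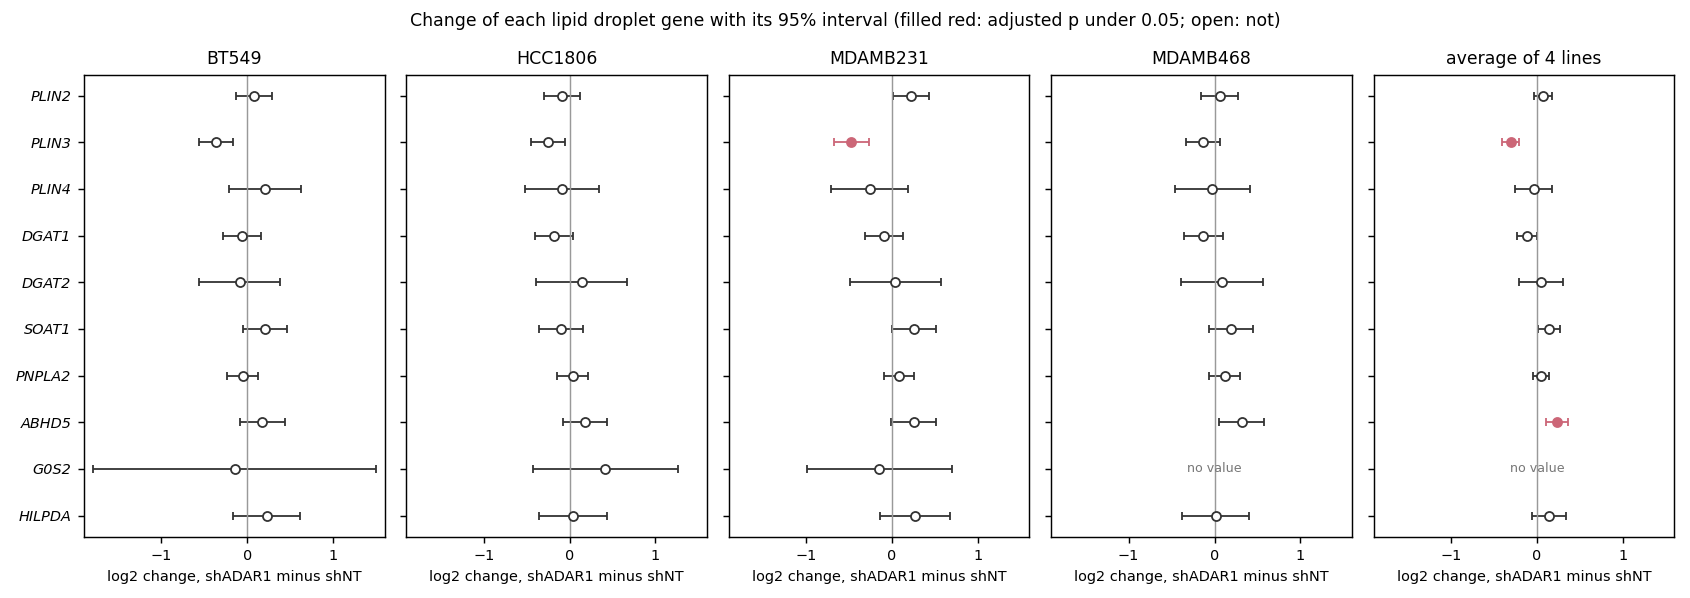
Log2 change, shADAR1 minus shNT, of each gene in each line and on average over the 4 lines, with its 95% interval from edgeR. Filled red points passed at an adjusted p under 0.05: PLIN3 in MDAMB231 and on average, and ABHD5 on average. G0S2 has no value in MDAMB468 or on average, and its intervals are the widest elsewhere.

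PLIN3, formerly TIP47, is a perilipin that is found in the cytosol and moves onto newly formed droplets. The files list it at chr19:4838341-4867768 on the minus strand, with 2813 bases of exon. In BT549 it stood at 192, 187.7 and 159.8 CPM in shNT replicates 1, 2 and 3 and at 142.4, 137.2 and 141.4 CPM in shADAR1. Every shADAR1 library was below every shNT library there. In MDAMB231 it stood at 173.1, 158.8 and 141.1 CPM in shNT and at 106, 123.1 and 111 CPM in shADAR1, again without overlap. HCC1806 had 80.83, 91.55 and 82.26 CPM in shNT and 65.07, 79.73 and 69.03 CPM in shADAR1, and the arms were separate by a small gap. MDAMB468 had 59.93, 52.05 and 57.48 CPM in shNT and 48.92, 51.98 and 53.39 CPM in shADAR1, and there the arms overlapped.

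The log2 difference of PLIN3 was -0.47 in MDAMB231 (SE 0.0964, adjusted p = 0.00666, edgeR). It was -0.36 in BT549 (SE 0.0957, adjusted p = 0.123), -0.25 in HCC1806 (SE 0.0963, adjusted p = 0.922) and -0.13 in MDAMB468 (SE 0.0968, adjusted p = 1), and none of these 3 passed. In an edgeR model blocked on the replicate number, the difference in BT549 passed (adjusted p = 0.00276, edgeR). It also passed there with DESeq2 (adjusted p = 0.024). The fall on average passed in all 24 fits that each left out 1 library. The call in MDAMB231 was lost without shADAR1 replicate 1 (adjusted p = 0.067) or shNT replicate 1 (adjusted p = 0.0555), and in a fit of the 6 MDAMB231 libraries alone (adjusted p = 0.105). Those were the smallest libraries of their arms, with 20922499 and 10370645 counts. That the fall differs between lines was not shown (joint test, adjusted p = 1). In control cells PLIN3 was highest in BT549 and MDAMB231, at 179.8 ± 17.52 and 157.7 ± 16.05 CPM (SD, n = 3), which did not differ beyond their spread (adjusted p = 0.0955, edgeR). HCC1806 followed at 84.88 ± 5.822 CPM and MDAMB468 at 56.48 ± 4.03 CPM, each below the line before it (adjusted p = 3.54e-08 and 1.32e-05).

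PLIN2, also called adipophilin or ADRP, is the perilipin that sits on droplets of most cells outside fat tissue and is degraded when it is not bound to a droplet. It is listed at chr9:19108375-19149290, on the minus strand. In MDAMB231 it had 55.56, 62.08 and 52.25 CPM in shNT and 63.91, 73.8 and 59.67 CPM in shADAR1. Each shADAR1 library was above the shNT library with the same number, while the arms as a whole overlapped. The log2 difference there was 0.22 (SE 0.102, adjusted p = 0.405, edgeR), and it passed with the replicate number as a block (adjusted p = 0.0284). In the other lines it lay between -0.09 and 0.08, and on average it was 0.07 (95% interval -0.04 to 0.17, adjusted p = 0.678). Control levels of PLIN2 ran from 60.93 ± 6.905 CPM (SD, n = 3) in HCC1806 through 56.63 ± 5.003 in MDAMB231 and 41.69 ± 3.431 in BT549 to 29.78 ± 1.615 in MDAMB468. The first 2 of these did not differ beyond their spread (adjusted p = 0.385, edgeR), and each later step did.

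PLIN4, a perilipin best known from fat cells, was near the bottom in every line. It is listed at chr19:4502192-4517704 on the minus strand and shares 20 exon bases with HDGFL2. Over the 24 libraries it ranged from 3.172 to 8.82 CPM, with 61 to 663 counts. BT549 shNT, with 7.013 ± 1.444 CPM (SD, n = 3), was above HCC1806 shNT, with 4.851 ± 0.4721 CPM (adjusted p = 0.0306, edgeR). Without BT549 shNT replicate 3, at 8.608 CPM, this difference (adjusted p = 0.177), that from MDAMB231 (0.102) and the joint test of the 4 control groups (0.0812) no longer passed, while that from MDAMB468 did (0.0212). The 3 lower lines did not differ from each other beyond their spread. The arms overlapped in all 4 lines, and the log2 difference on average was -0.04 (95% interval -0.26 to 0.18, adjusted p = 1).

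The share of PLIN3 among the 3 perilipins did not overlap between the arms in 2 lines. This share was not tested, and it is computed from the same counts of PLIN3 whose fall is given above. Of the summed RPKM of the 3 perilipins, PLIN3 made up 82.5% ± 1.25 in MDAMB231 shNT and 74.9% ± 1.08 in shADAR1 (SD, n = 3 each). Its shares were 83.9%, 81.5% and 82% against 74%, 74.5% and 76.1%, with no overlap. In BT549 the share was 87.3% ± 0.694 in shNT and 83.4% ± 0.743 in shADAR1, also with no overlap. In HCC1806 it was 70.3% ± 2.66 and 67.8% ± 2.64, and in MDAMB468 75.5% ± 2.11 and 73.1% ± 1.47, with overlapping libraries in both. PLIN2 took most of the rest and was 16.4% in MDAMB231 shNT and 24% in shADAR1. The change of PLIN2 itself in that line did not pass the edgeR test without the replicate block.

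**Figure D3:**
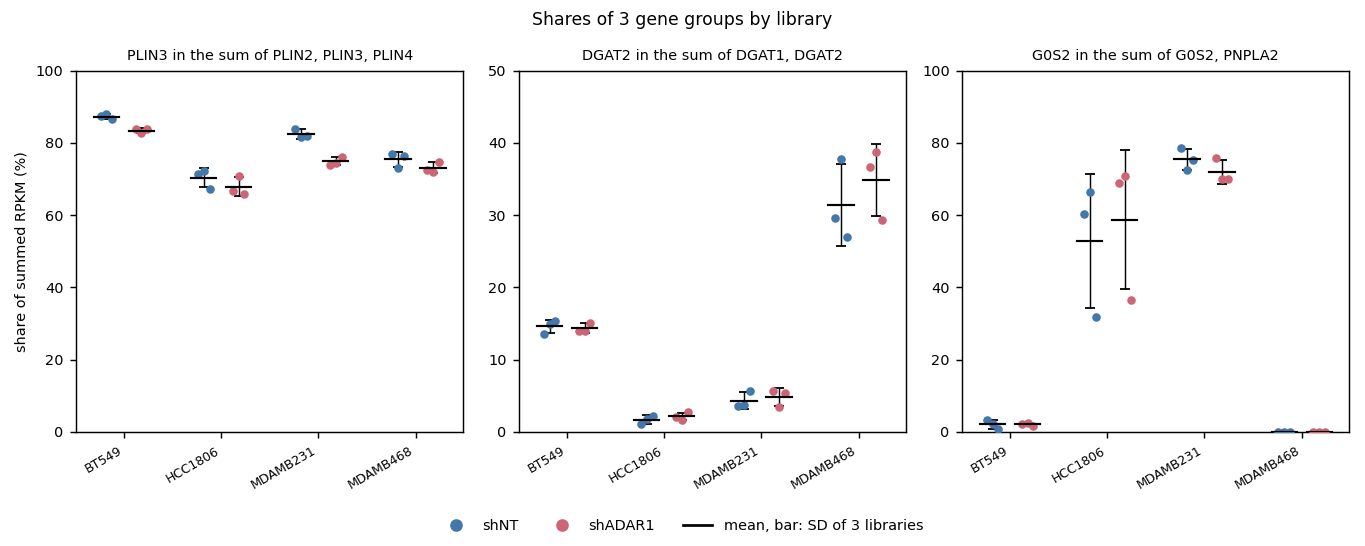
Share of summed RPKM in percent, by library: PLIN3 among the 3 perilipins (axis 0 to 100), DGAT2 in the sum of DGAT1 and DGAT2 (axis 0 to 50) and G0S2 in the sum of G0S2 and PNPLA2 (axis 0 to 100). Points are libraries, with means and SD of 3. The PLIN3 share is lower in every shADAR1 library than in every shNT library in BT549 and MDAMB231, while the DGAT2 and G0S2 shares differ by line and their arms overlap in each line where they are above 0.

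The bases before the start of the perilipin genes were searched because PLIN3 fell on average and PLIN2 did not pass the test. RefSeq sequences (GRCh38.p14) of the promoter were at hand for 7 of the 10 genes: PLIN2, PLIN3, PLIN4, PNPLA2, ABHD5, G0S2 and SOAT1. In the 250 bases before each start, 6 short motifs were sought on both strands: the E-box CACGTG, the hypoxia response core ACGTG, the CCAAT box CCAAT, the GC box GGGCGG, the TATA box TATAAA and AGGTCA, a core bound by nuclear receptors. Each E-box contains the hypoxia response core on both strands and counts for it as well. PLIN2 and PLIN3 each had 2 GC boxes, at 146 and 110 bases before the start in PLIN3 and at 242 and 45 bases in PLIN2. PLIN2 also had 1 E-box, 69 bases before its start, 3 matches to the hypoxia response core, 2 of them within the E-box, and 1 TATA box, 29 bases before the start. PLIN3 had none of these, and had 1 CCAAT box, 77 bases before its start, which PLIN2 did not. PLIN4, which did not pass the test, also had 1 CCAAT box, 76 bases before its start. It likewise had no E-box, hypoxia response core or TATA box, and it had no GC box. SOAT1 had 1 CCAAT box too, 85 bases before its start. Whether any of these motifs bears on the changes was not tested. Of 35116 promoter windows, 42.6% hold a GC box, 6.34% an E-box, 18.5% the hypoxia response core, 10.7% the TATA box and 32% a CCAAT box. The sequences below run 5′ to 3′ on the gene's own strand, with the named motif in capitals. For PLIN3 they are the 149 bases at chr19:4867769-4867917, which stop 101 bases before the RefSeq start because the files list exon from there on. For PLIN2 they are the 30 bases around the E-box, at chr9:19127544-19127573. The RefSeq start used for PLIN2 lies inside the bounds that the files list for the gene, which reach chr9:19149290. Its window is therefore not upstream of the gene as listed.
PLIN3 GC boxes: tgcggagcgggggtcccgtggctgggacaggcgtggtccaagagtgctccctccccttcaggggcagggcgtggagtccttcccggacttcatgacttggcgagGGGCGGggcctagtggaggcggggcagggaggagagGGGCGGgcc
PLIN2 E-box: gctgccgcgggtCACGTGctgcggaggctt

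Of the enzymes that make neutral lipid, none passed the edgeR test without the replicate block in any line or on average, and SOAT1 passed with it in MDAMB231 and on average. Among these 3 genes the widest span between lines was that of DGAT2. DGAT2, which lies in the endoplasmic reticulum and on droplets and favours newly made fatty acids, is listed at chr11:75759512-75801535 on the plus strand. In shNT libraries it had 23.92, 22.47 and 20.15 CPM in BT549 and 22.08, 25.77 and 14.86 CPM in MDAMB468. It had 3.691, 3.806 and 5.591 CPM in MDAMB231 and 1.979, 2.85 and 3.862 CPM in HCC1806. The first pair of lines stood apart from the second with no overlap, and BT549 was 7.66-fold above HCC1806 (adjusted p = 8.04e-10, edgeR). Within each pair the lines did not differ beyond their spread (adjusted p = 0.773 and 0.0572). The arms of DGAT2 overlapped in all 4 lines, and its log2 difference on average was 0.05 (95% interval -0.21 to 0.30, adjusted p = 1).

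SOAT1 esterifies cholesterol in the endoplasmic reticulum and is listed at chr1:179293714-179358680, on the plus strand. BT549 had 77.78, 85.36 and 84.87 CPM in shNT and 89.51, 96.47 and 100.6 CPM in shADAR1. MDAMB231 had 105.4, 124.8 and 133.7 CPM in shNT and 138.8, 160.3 and 136.3 CPM in shADAR1. MDAMB468 had 37.5, 35.76 and 35.9 CPM in shNT and 44.95, 37.78 and 41.98 CPM in shADAR1. In these 3 lines every shADAR1 library was above every shNT library. HCC1806 was the other way about, with 131.5, 125.5 and 95.61 CPM in shNT and 121.1, 119.3 and 88.24 CPM in shADAR1, and the arms overlapped.

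The log2 differences of SOAT1 were 0.21 in BT549, 0.26 in MDAMB231, 0.19 in MDAMB468 and -0.10 in HCC1806, with SEs of 0.123 to 0.125. None passed in edgeR (adjusted p of 0.421 or more), nor did the average of 0.14 (SE 0.0617, adjusted p = 0.325). With the replicate number as a block, SOAT1 passed in MDAMB231 (adjusted p = 0.00829), on average (adjusted p = 0.00433) and when the 4 changes were tested jointly against each other (adjusted p = 0.0473). The unblocked model gave an adjusted p of 1 for that. In the control cells SOAT1 was highest in MDAMB231 and HCC1806, at 121.3 ± 14.47 and 117.5 ± 19.23 CPM (SD, n = 3), which did not differ (adjusted p = 0.759). BT549 followed at 82.67 ± 4.242 CPM and MDAMB468 at 36.39 ± 0.9679 CPM, each below the line before it (adjusted p = 0.00101 and 1.77e-08, edgeR).

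PNPLA2, or ATGL, the lipase of the first step of triglyceride breakdown, was among the 3 most abundant of the 10 genes by RPKM in every control group. It is listed at chr11:818902-825573 on the plus strand. HCC1806 and MDAMB231 shNT had 147.5 ± 13.07 and 146.7 ± 11.58 CPM (SD, n = 3) and did not differ (adjusted p = 0.96, edgeR). MDAMB468 followed at 126.5 ± 3.341 CPM and BT549 at 66.47 ± 3.206 CPM. Between arms PNPLA2 gave narrow intervals around 0: on average the log2 difference was 0.05 (95% interval -0.04 to 0.14, adjusted p = 0.772). In MDAMB468 the 3 shADAR1 libraries, at 132.4, 139.9 and 140 CPM, were above the 3 shNT libraries, at 125.7, 123.7 and 130.2 CPM. That log2 difference was 0.12 and did not pass (adjusted p = 1).

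ABHD5, also called CGI-58, binds PNPLA2 and activates it. It is listed at chr3:43690113-43734371 on the plus strand and shares 170 exon bases with ANO10 on the other strand. Strand use in counting is not given in the sources used here, so reads of those bases cannot be assigned to either gene. HCC1806 had 29.42, 37.44 and 37.06 CPM in shNT and 40.3, 40.04 and 37.75 CPM in shADAR1. MDAMB468 had 18.37, 16.83 and 18.59 CPM in shNT and 23.76, 21.59 and 21.67 CPM in shADAR1. In both lines all shADAR1 libraries were above all shNT libraries. In BT549 (11.55, 12.33 and 9.678 against 13.79, 12.29 and 11.94 CPM) the arms overlapped. They overlapped as well in MDAMB231 (28.42, 24.62 and 26.01 against 38.04, 29.8 and 26.3 CPM).

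The log2 differences of ABHD5 were 0.18 in BT549 and in HCC1806, 0.25 in MDAMB231 and 0.32 in MDAMB468, with SEs of 0.125 to 0.127, and none passed alone (adjusted p of 0.458 or more, edgeR). The rise on average, with an adjusted p of 0.0468, lies close to the threshold. It was kept without BT549 shNT replicate 2, HCC1806 shNT replicate 2 or 3, MDAMB231 shADAR1 replicate 2 or 3, or MDAMB231 shNT replicate 1, and was lost in the other 18 fits that each left out 1 library (adjusted p 0.018 to 0.105 over the 24). It was also lost with RLE scaling (adjusted p = 0.0676), upper-quartile scaling (0.0521) and no filter on low counts (0.0721), and it passed with DESeq2 (0.0181). The share of ABHD5 in the summed RPKM of ABHD5 and PNPLA2 was 14.6% ± 0.454 in MDAMB468 shNT and 16.5% ± 1.21 in shADAR1 (SD, n = 3), without overlap. It overlapped between arms in the other 3 lines. Control levels of ABHD5 formed 4 steps that edgeR called, from 34.64 ± 4.525 CPM in HCC1806 through 26.35 ± 1.926 in MDAMB231 and 17.93 ± 0.9568 in MDAMB468 to 11.19 ± 1.362 in BT549 (adjusted p = 0.00909, 0.000683 and 7.26e-05).

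G0S2, a small protein that binds PNPLA2 and blocks it, ranged from no read at all to the most abundant of the 10 genes. It is a short gene of 866 exon bases at chr1:209675420-209676388, on the plus strand. MDAMB468 had 0 counts in each of its 6 libraries, of 259911066 counts in all. The shNT libraries of BT549 had 30, 22 and 4 counts, or 0.5324, 0.339 and 0.09306 CPM. HCC1806 shNT had 46.48, 64.59 and 16.97 CPM, and MDAMB231 shNT had 109.5, 90.97 and 104.9 CPM. The 4 lines did not overlap. A floor of 3 counts over the total of the 3 MDAMB468 shNT libraries, without TMM scaling, is 0.0251 CPM. Set against it, MDAMB231 was at least 4050-fold higher, HCC1806 at least 1700-fold and BT549 at least 12.8-fold.

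The step from HCC1806 to MDAMB231 rested in part on 1 library. The log2 difference of G0S2 between these shNT groups was 1.25 (adjusted p = 0.013, edgeR), and without HCC1806 shNT replicate 3 it was 0.86 (adjusted p = 0.0577). That library and HCC1806 shADAR1 replicate 3, at 22 CPM, were the low ones of their arms, where the shADAR1 replicates 1 and 2 had 68.45 and 80.58 CPM. Each HCC1806 shADAR1 library was above the shNT library of its number. The log2 difference between arms was 0.42 (95% interval -0.43 to 1.26, adjusted p = 1, edgeR) and passed with the replicate number as a block (adjusted p = 0.0218). In MDAMB231 the difference was -0.15 (95% interval -0.99 to 0.70), with 117.4, 79.03 and 79.52 CPM in shADAR1. In RPKM, G0S2 made up 75.4% ± 3 of the sum of G0S2 and PNPLA2 in MDAMB231 shNT, 52.8% ± 18.4 in HCC1806, 2.05% ± 1.32 in BT549 and 0% in MDAMB468 (SD, n = 3).

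The 250 bases before the RefSeq start of G0S2, at chr1:209675162-209675411 on the plus strand, are shown because the gene is so unequal between the lines. They held no match to any of the 6 motifs, which says only that those letters are not in this window, and so the sequence has no capitals.
G0S2 upstream: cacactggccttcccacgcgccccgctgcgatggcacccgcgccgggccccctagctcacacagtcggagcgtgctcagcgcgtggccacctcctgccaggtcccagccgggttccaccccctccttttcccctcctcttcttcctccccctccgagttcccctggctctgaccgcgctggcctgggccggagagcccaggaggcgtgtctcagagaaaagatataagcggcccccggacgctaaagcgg

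HILPDA, a hypoxia-induced droplet protein that also inhibits PNPLA2, had its line means in the reverse order of those of G0S2. It is listed at chr7:128455849-128458418, on the plus strand. Control means were 14.18 ± 1.809 CPM in MDAMB468, 10.49 ± 1.638 in BT549, 8.704 ± 1.1 in HCC1806 and 6.824 ± 2.271 in MDAMB231 (SD, n = 3). No 2 neighbours in that order differed at the threshold (adjusted p = 0.0509, 0.224 and 0.184, edgeR), while MDAMB468 was 2.08-fold above MDAMB231 (adjusted p = 9.28e-05). The arms of HILPDA overlapped in all 4 lines. On average its log2 difference was 0.14 (95% interval -0.06 to 0.33, adjusted p = 0.633).

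DGAT1, the acyltransferase of the endoplasmic reticulum that re-esterifies incoming fatty acids, is listed at chr8:144314584-144326910 on the minus strand, and shares 146 exon bases with HSF1 and another listed gene. Control levels formed 4 steps, each called by edgeR: 89.26 ± 7.224 CPM in HCC1806, 68.24 ± 10.75 in BT549, 50.98 ± 1.681 in MDAMB231 and 23.59 ± 3.401 in MDAMB468 (SD, n = 3). The log2 difference between arms was below 0 in all 4 lines, between -0.18 and -0.06, and on average it was -0.12 (SE 0.0539, 95% interval -0.23 to -0.01, adjusted p = 0.355). In TMM-scaled CPM the arms were just separate in MDAMB231, with 51.5, 52.35 and 49.11 CPM in shNT and 45.51, 48.85 and 49 CPM in shADAR1. In deposited RPKM they overlapped, at 13.02, 12.37 and 11.84 in shNT and 10.99, 11.66 and 12.21 in shADAR1. The arms of DGAT1 overlapped in the other lines. DGAT2 made up 31.4% ± 5.65 of the summed RPKM of DGAT1 and DGAT2 in MDAMB468 shNT, 14.6% ± 0.916 in BT549, 4.3% ± 1.14 in MDAMB231 and 1.68% ± 0.562 in HCC1806.

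The counts over the 10 genes, which were chosen with earlier results of these data known, are set here against those over all genes. In TMM-scaled CPM the arms did not overlap for 2 of 10 genes in BT549 and 2 of 10 in HCC1806. They did not overlap for 3 of 10 in MDAMB231 and 3 of 9 in MDAMB468. Of all genes tested 14.7%, 7.58%, 14.2% and 11.0% were so separated in that order of lines. The overlap depends on the scaling. In deposited RPKM the arms of DGAT1 in MDAMB231 overlapped, while those of PLIN2 in MDAMB231, PLIN3 in MDAMB468 and DGAT2 in BT549 did not. PLIN3, DGAT1, ABHD5 and HILPDA, 4 of 9 genes, had the same sign in all 4 lines, as did 21.7% of all genes. The median log2 difference of the members was 0.01 in BT549, -0.03 in HCC1806, 0.06 in MDAMB231, 0.06 in MDAMB468 and 0.05 on average. Over all genes tested it was 0.01, 0.00386, 0, 0.00997 and 0.02. With the replicate number as a block, 1, 1, 3 and 0 members passed in the 4 lines and 3 on average, where 5.14%, 2.10%, 11.4%, 1.66% and 13.2% of all genes passed. In the joint test of a different change between lines 1 of 9 passed with the block, as did 4.69% of all genes.

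Among 36 other genes of neutral lipid handling, 32 were tested, and on average 1 rose and 3 fell (edgeR, with 1.26% and 1.70% of all genes called higher and lower). These genes were grouped as neutral lipid synthesis, lipolysis and lysosomal breakdown, and droplet coat and assembly. The lists too were chosen with earlier results of these data known. MOGAT1, MOGAT3, CIDEA and CIDEB did not pass the filter. PCYT1A, the droplet-sensing enzyme that sets the rate of phosphatidylcholine synthesis, fell by 0.39 on the log2 scale (SE 0.0485, adjusted p = 1.84e-05). In MDAMB231 it stood at 84.3, 78.3 and 80.9 CPM in shNT and at 44.5, 56.4 and 58.2 CPM in shADAR1, a fall of its own that passed (log2 -0.61, adjusted p = 0.000561) and was lost in a fit of that line alone (adjusted p = 0.0513). BT549 had 105, 108 and 106 CPM in shNT and 80, 79.3 and 80.4 CPM in shADAR1. HCC1806 had 150, 171 and 159 CPM in shNT and 122, 144 and 142 CPM in shADAR1, and MDAMB468 had 35.9, 37.4 and 43.3 CPM against 29.2, 32.2 and 33.9 CPM. The arms did not overlap in any of the 4 lines.

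NCEH1, a hydrolase that frees cholesterol from its esters and so opposes SOAT1, fell by 0.36 on average (SE 0.075, adjusted p = 0.00623, edgeR). Its libraries read 213, 219 and 196 CPM in MDAMB231 shNT and 134, 164 and 130 CPM in shADAR1. In MDAMB468, with 26.1, 18.2 and 22.4 CPM in shNT and 23.7, 17.9 and 23.3 CPM in shADAR1, the arms overlapped. They overlapped as well in HCC1806 (55.8, 51.8 and 48 against 47.8, 49.7 and 39.3 CPM). In BT549 they did not (32.1, 33.4 and 22.2 against 19.2, 19.8 and 16.8 CPM). No line passed alone, with an adjusted p of 0.0521 in BT549 and 0.0547 in MDAMB231 (edgeR). AGPAT1, which makes phosphatidic acid on the way to triglyceride, fell by 0.23 (SE 0.0574, adjusted p = 0.025), a call kept in 12 of 24 fits without 1 library (adjusted p 0.00472 to 0.0646) and lost with no filter (0.0584). The falls of PCYT1A and NCEH1 on average passed in all 24. LPIN2, a phosphatidate phosphatase of the same route, fell in MDAMB231 by 0.45 (adjusted p = 0.0392), a call kept in 1 of 6 such fits, that without shADAR1 replicate 3 (adjusted p 0.0423 to 0.268). It was also lost with upper-quartile scaling (0.0611) and with that line alone (0.0932). The gene that rose was SOAT2, the paralog of SOAT1, at a trace: its shNT libraries had 0 to 19 counts and its shADAR1 libraries 0 to 30, and the call was kept in 5 of 24 fits.

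Of 7 genes for lipolysis and lysosomal breakdown all 7 had a value below 0 on average, as did 45% of all genes tested, 1 of them called, with a median log2 difference of -0.26. For MGLL (-0.01, SE 0.204), LIPA (-0.02, SE 0.103) and CES1, whose SE is larger than any other in the lists, the value is far within its error. CES1 had 0 CPM in BT549 shNT and in MDAMB231 shADAR1. Its log2 difference was below 0 only in MDAMB231 (-4.03), and the count of 7 and the median include it. In MDAMB468 3 of the 7 were below 0, and in each of the other lines 5 were. Of 14 tested genes for droplet coat and assembly 3 were below 0, 1 of them called, and the median was 0.07. HCC1806 and MDAMB231 each had 9 of them below 0, BT549 had 6 and MDAMB468 had 5. Of 11 tested genes for neutral lipid synthesis 7 were below 0, with 1 called lower and 1 called higher, and the median was -0.03. In MDAMB468 3 of these 11 were below 0, against 7 in HCC1806 and 8 in each of the other lines. The median over all genes tested was 0.02. Whether the lists differ from each other or from other genes was not tested. With the replicate number as a block, 10 of the 32 passed on average, where 13.2% of all genes did: GPAT3, AGPAT1, LPIN1, LPIN2, SOAT2, LIPE, NCEH1, ABHD6, FITM2 and PCYT1A.

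**Figure D4:**
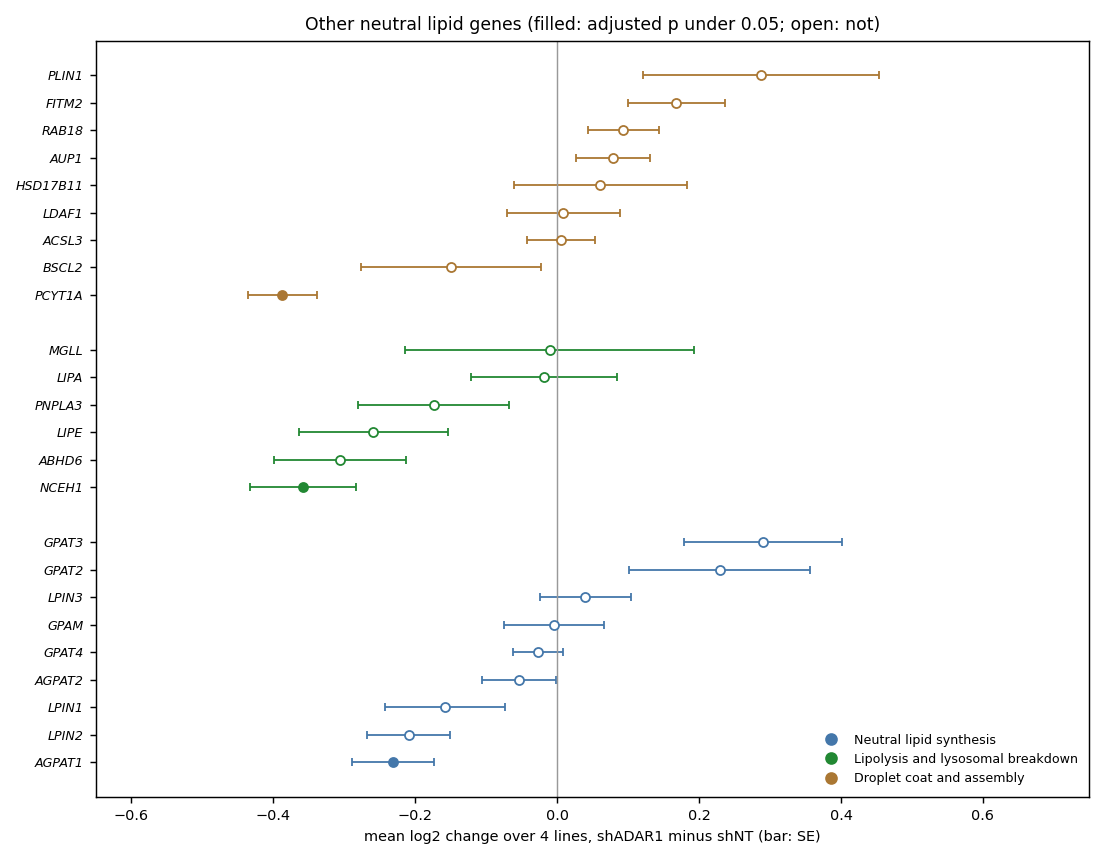
Mean log2 change over the 4 lines, shADAR1 minus shNT, with its SE, for the 24 other neutral lipid genes with a mean of at least 1 CPM and an SE of at most 1. Filled points passed at an adjusted p under 0.05: PCYT1A, NCEH1 and AGPAT1, all below 0. The 6 lipolysis genes drawn have values below 0, from -0.36 for NCEH1 to -0.01 for MGLL, and the bars of MGLL and LIPA cross 0.

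For each member, the other genes with the most similar pattern were found by Pearson's r over the 24 libraries, on log2 CPM of 11000 genes. These are descriptions, since the 24 points are 4 lines and the libraries share their depth and arm. By level, PLIN3 was most like ACSL4, which activates arachidonic acid for membrane lipids (r = 0.982), G0S2 was most like TOR4A (r = 0.992), DGAT1 like CPSF1 (r = 0.988), SOAT1 like GSTO1 (r = 0.983) and DGAT2 like LAGE3 (r = 0.978). Those values follow the 4 line levels. After the mean of each line was subtracted, PLIN3 was most like CANT1 (r = 0.934) and EIF4H (r = 0.929), both of which fell on average, by 0.38 and 0.40 on the log2 scale (adjusted p = 7.29e-05 and 1.12e-06, edgeR). ABHD5 was then most like GIPC1 (r = 0.835), whose average difference of 0.17 did not pass (adjusted p = 0.0835). SOAT1 was most like SFXN4 (r = 0.872), PNPLA2 like SIX5 (r = 0.885) and G0S2 like EHD1 (r = 0.881). PLIN2 was most like HSF1 (r = 0.836), the gene whose exons overlap those of DGAT1. Among the members themselves, with line means subtracted, the highest r was that of PLIN2 with HILPDA (0.567), and PLIN3 had r = 0.488 with DGAT1 and -0.426 with ABHD5.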

How the data were processed

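RNA-seq of 24 cell line libraries was analysed from the processed files. Per the file headers, each deposited file holds a whole-number read count for every gene, CPM (the count over the library total, matched within 4.7e-11) and RPKM (CPM per kilobase of listed gene length). The CPM printed as the level is not the deposited one. It divides the count by the library's total over tested genes multiplied by its TMM factor. The deposited RPKM served to compare genes and carries no TMM scaling. Per the submitters' processing notes, the tools were bcl2fastq, STAR 2.5.1a, Subread featureCounts 1.4.6-p5 and edgeR; genome build, annotation and strand use are not given in the sources used here. Coordinates are as listed in the files; the bounds of 8 of the 10 genes equal those of GENCODE 29 on GRCh38 (PLIN4 and ABHD5 differ).

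The deposited counts were tested with edgeR 4.0.16 in R 4.3.3 (filterByExpr, TMM factors 0.924 to 1.12, quasi-likelihood F test, 2-sided, 1 coefficient per group over all 24 libraries), after a test on simulated data. P-values were adjusted by the Benjamini-Hochberg method over 21352 genes, and 0.05 was the threshold. SEs come from the fold change and F. Total counts per library (10370645 to 97218217) set the precision of low genes. No replicates agreed within sampling noise: the smallest chi-square, divided by its degrees of freedom, was 11.8.

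Same-numbered libraries of the arms deviated together from their group means: for replicates 1 to 3 the correlation was 0.139, 0.158 and 0.25 within BT549, 0.242, 0.332 and 0.443 within HCC1806, and 0.204, 0.348 and 0.149 within MDAMB231. There the numbers were read as pairs. MDAMB468 had 0.165, 0.166 and 0.0651, and its numbers were not. The values do not clearly set that line apart, since 0.139 and 0.158 in BT549 lie below 0.165 and 0.166. Fits with the block nevertheless hold all 4 lines, and the main fit uses no pairs.

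The alternatives were DESeq2 1.42.0, scaling by RLE or by the upper quartile, no filter, at least 10 counts in every library, the block, each line alone and leaving out each library. Members and lists were chosen with earlier results of these data known. Named genes were ADAR, the members, the list genes past the threshold, and the 2 genes most like each member by Pearson's r among genes whose mean log2 CPM (prior count 2) was 2 or more, of which the text gives some.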

Additional observations from a re-analysis of the deposited data

How the results depend on the processing

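The number of members called moved with the processing. In BT549 it went from 0 to 1 with DESeq2 and with the replicate block (PLIN3 in both), and in HCC1806 from 0 to 1 with the block (G0S2). In MDAMB231 it was 3 with the block (PLIN2, PLIN3 and SOAT1) and 0 with only the line's libraries, and it ranged from 0 to 1 when 1 library was left out. On average over the lines it went from 2 to 1 with RLE scaling, with upper-quartile scaling and with no filter (PLIN3 in each), and ranged from 1 to 2 without 1 library; with the block it was 3 (PLIN3, ABHD5 and SOAT1). For a difference between lines it was 1 with the block (SOAT1). Control levels differed for 9 to 10 members without 1 library, and the gene lost was PLIN4, without BT549 shNT replicate 3. The pathway genes called on average went from 4 to 10 with the block and ranged from 2 to 5 without 1 library. The block changed no other call of a member.

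Signs reversed only for differences that had not passed. DGAT2 in MDAMB231 was -0.012 with the block, and HILPDA in MDAMB468 was -0.00539 with upper-quartile scaling and -0.000947 with the line alone. Without 1 library, the log2 differences that crossed 0 ranged from -0.16 to 0.00183 for PLIN2 in HCC1806, from -0.29 to 0.0356, -0.12 to 0.12 and -0.10 to 0.0035 for PLIN4 in HCC1806, MDAMB468 and on average, and from -0.16 to 0.0649 for DGAT1 in BT549. They ranged from -0.0401 to 0.41, -0.11 to 0.28, -0.11 to 0.27 and -0.00335 to 0.11 for DGAT2 in HCC1806, MDAMB231, MDAMB468 and on average, from -0.0321 to 0.11 for PNPLA2 in HCC1806, from -0.50 to 0.36 for G0S2 in BT549, from -0.0563 to 0.13 and -0.0549 to 0.12 for HILPDA in HCC1806 and MDAMB468, and from -0.23 to 0.0562 for SOAT1 in HCC1806. The causes were not tested. Joint tests were not run with DESeq2, and control levels were not run with the block. Without both HCC1806 replicates 3, chosen after seeing the data, G0S2 was higher in MDAMB231 than in HCC1806 by 0.89 (adjusted p = 0.00306, edgeR). Low counts limit G0S2 in BT549, with 4 to 32 per library.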
